A study of Mus musculus with 2 samples.

Results

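Shallow T cell barcodes that carry both haemoglobin RNA and neutrophil granule RNA are described here, within 2 droplet libraries of splenic YFP+ Tregs. In droplet single-cell RNA-Seq each droplet has a barcode, and each captured RNA molecule has a unique molecular identifier (UMI), so depth is the number of UMIs per barcode. A shallow T barcode had at least 300 genes, fewer than 2000 UMIs, at most 5% mitochondrial UMIs, and at least 1 UMI among Cd3d, Cd3e, Cd3g, Trac and Trbc2, which encode the T cell receptor complex. Such a barcode is called a carrier here when it also held at least 2 UMIs of the globin genes Hba-a1, Hba-a2, Hbb-bs and Hbb-bt (under 30% of its UMIs) and at least 1 UMI of the granule genes S100a8, S100a9, Ngp, Camp, Ltf and Lcn2 (under 5%). Of 32658 barcodes in both libraries, 3200 were carriers, 506 in WT and 2694 in KO. A shallow T barcode with 0 or 1 globin UMI and no granule UMI is called clear, and 361 WT and 493 KO barcodes were clear. The carriers were chosen by their own globin, granule and T cell receptor UMIs, so the levels of these genes are given as a description. The rule does not show that a barcode held a single cell.

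Hba-a1 and Hbb-bs encode the alpha and beta chains of adult haemoglobin and are transcribed at very high levels in developing red cells. S100a8 and S100a9 encode calprotectin, the most abundant cytosolic protein of neutrophils, and Ngp, Camp, Ltf and Lcn2 encode contents of the neutrophil granules. These products are typical of red cells and neutrophils rather than of T cells. The study, however, reported high S100a8 and S100a9 in a Treg subset that it called dysfunctional. Which cells made the RNA in carriers was not tested here. The neonatal mouse spleen still forms red cells and granulocytes, and RNA released into a cell suspension can be captured in any droplet.

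The WT library came from the spleens of Foxp3-Cre mice without floxed Zfp335, and the KO library from Zfp335fl/flFoxp3-Cre mice, both C57BL/6J and 7 days old. The Cre recombinase is fused to YFP and translated from the Foxp3 transcript, so that it acts in Foxp3-expressing cells and both genotypes carry the reporter. Red cells were lysed with ACK buffer, and CD4+YFP+7AAD- cells, which exclude the dead-cell dye, were sorted. The number of mice behind each library is not stated. Each genotype was sequenced as 1 library. No p-value, SE or count of genes changed by genotype can therefore be given. Counts of genes past a ratio or an interval describe these libraries only, and each interval is a 95% interval for counting error only.

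The WT library had 64567991 UMIs over 14524 barcodes and the KO library 65480052 over 18134. After the gene and mitochondrial filters, shallow barcodes made up 20.8% of 8053 WT barcodes and 38.6% of 13767 KO barcodes, and 95.9% and 99.0% of them had a T cell receptor UMI. No shallow T barcode had fewer than 599 UMIs in WT or 820 in KO. The libraries shared 70 barcode sequences, which were borne by 1 WT and 14 KO carriers. Zfp335, the deleted gene, had 5 UMIs in the WT carriers (9.88 CPM, UMIs per 1000000 UMIs outside the 15 genes of the rule) and 6 in the more numerous KO carriers (1.74 CPM), a KO to WT ratio of 0.177 (0.0449 to 0.731).

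Carriers formed a larger part of the shallow T barcodes in KO. They were 31.4% of 1610 shallow T barcodes in WT (Clopper-Pearson interval 29.2 to 33.8) and 51.2% of 5259 in KO (49.9 to 52.6), 19.8 percentage points more in KO (Newcombe interval 17.1 to 22.4). Another 17.5% in WT and 29.3% in KO had the globin UMIs alone, 27.5% and 8.25% the granule UMIs alone, and 22.4% and 9.37% were clear. The KO barcodes were deeper, the median KO carrier having 1261 UMIs and 692 genes and the median WT carrier 845 and 516, and depth raises the chance of holding the required UMIs. Between 1500 and 2000 UMIs the carriers were 40.7% (34.1 to 47.6) of 216 WT barcodes and 51.7% (49.2 to 54.2) of 1589 KO barcodes. The WT share was 26.4% under 750 UMIs and 33.2% at 750 to 1000, whereas the KO share stayed between 49.0% and 52.0% over its bands. With WT barcodes below the lowest KO depth left out, the WT share was 36.5% and the difference 14.7 points (11.0 to 18.4).

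The pairing of both RNAs was far more frequent in shallow than in deep T barcodes once depth was equalised. When every barcode with a T cell receptor UMI and below both upper limits was thinned at random to 500 UMIs, both RNAs were present in 36.3% (33.5 to 39.3) of KO barcodes that had under 1000 UMIs before thinning. The KO share was 27.9% at 1000 to 2000 UMIs, 9.11% at 2000 to 4000, 1.15% at 4000 to 8000 and 0.329% at 8000 to 16000. In WT the shares at these depths were 14.9%, 10.2%, 1.47%, 0.479% and 0.401%. Without thinning, 51.9% of WT and 59.8% of KO T barcodes of 4000 to 8000 UMIs met the globin and granule minimums, so the minimums alone did not set shallow barcodes apart. Globin genes took 2.32% of UMIs in KO T barcodes of 750 to 1000 UMIs and 0.188% at 4000 to 8000, and granule genes 0.435% and 0.0272%. The WT globin shares were 1.19% and 0.0520%. T barcodes of 16000 UMIs or more had 0.630% globin UMIs in KO and 0.244% in WT, so the fall with depth did not continue.

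**Figure D1:**
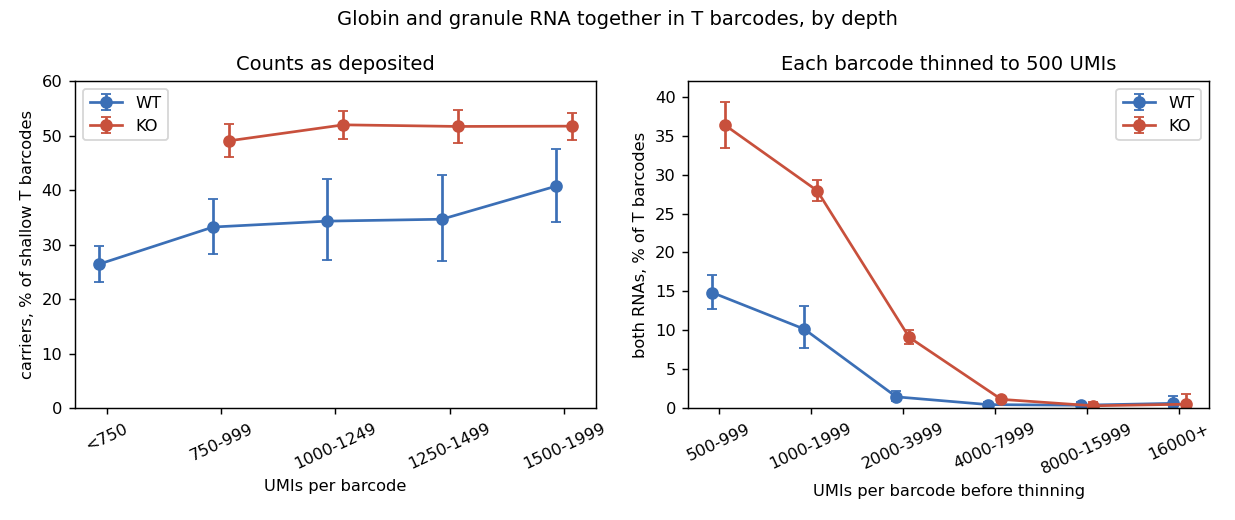
Left, carriers as a percentage of shallow T barcodes (y axis) by UMIs per barcode (x axis); right, percentage of T barcodes with both RNAs after thinning each to 500 UMIs, by UMIs before thinning. Points are WT (blue) and KO (red) with 95% Clopper-Pearson bars; KO lies above WT in each band of the left panel that holds both (no KO barcode was under 750 UMIs), and on the right both fall from 36.3% in KO and 14.9% in WT to under 2% from 4000 UMIs.

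KO carriers held more of both RNAs than WT carriers, and were deeper, with a median of 1261 UMIs against 845. Over all T barcodes of 1500 to 2000 UMIs under both upper limits, globin UMIs averaged 18.4 in KO and 13.3 in WT. Granule UMIs averaged 3.35 and 1.78 there. The lowest, median and highest number of globin UMIs per carrier were 2, 3 and 326 in WT and 2, 13 and 507 in KO, and those of granule UMIs were 1, 1 and 50 in WT and 1, 2 and 85 in KO. The libraries overlapped, and KO carriers reached higher counts of both RNAs, and 77.3% of WT carriers had 2 to 4 globin UMIs, as against 27.4% of KO carriers. At least 10 globin UMIs were found in 49 WT carriers (9.68%) and 1504 KO carriers (55.8%), and at least 10 granule UMIs in 6 (1.19%) and 675 (25.1%). At least 10 of both were found in 572 KO carriers (21.2%) and in 0 WT carriers, which allows a share of up to 0.593% in WT. In WT the globin UMIs were held by few barcodes: 43 carriers with 20 or more, 8.50% of all, had 78.4% of the globin UMIs. In KO, 1110 carriers with 20 or more had 85.9% of them.

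In KO both RNAs went together from barcode to barcode. Of KO shallow T barcodes with no globin UMI, 43.8% (38.2 to 49.6) had a granule UMI, and this share was 50.9% at 2 to 4 globin UMIs, 66.4% at 10 to 19 and 74.5% (72.2 to 76.7) at 20 or more. Granule UMIs per barcode were 1.04 without globin and 7.93 at 20 or more, at median depths of 1241 and 1232 UMIs. In WT the share went from 52.5% (47.0 to 57.9) without globin to 78.6% (68.3 to 86.8) at 5 to 9, with a median depth of 967 against 742 UMIs. It was 55.8% (44.1 to 67.2) at 20 or more in WT, where granule UMIs averaged 0.896 per barcode. The WT barcodes richest in globin thus had granule UMIs about as often as those with none.

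**Figure D2:**
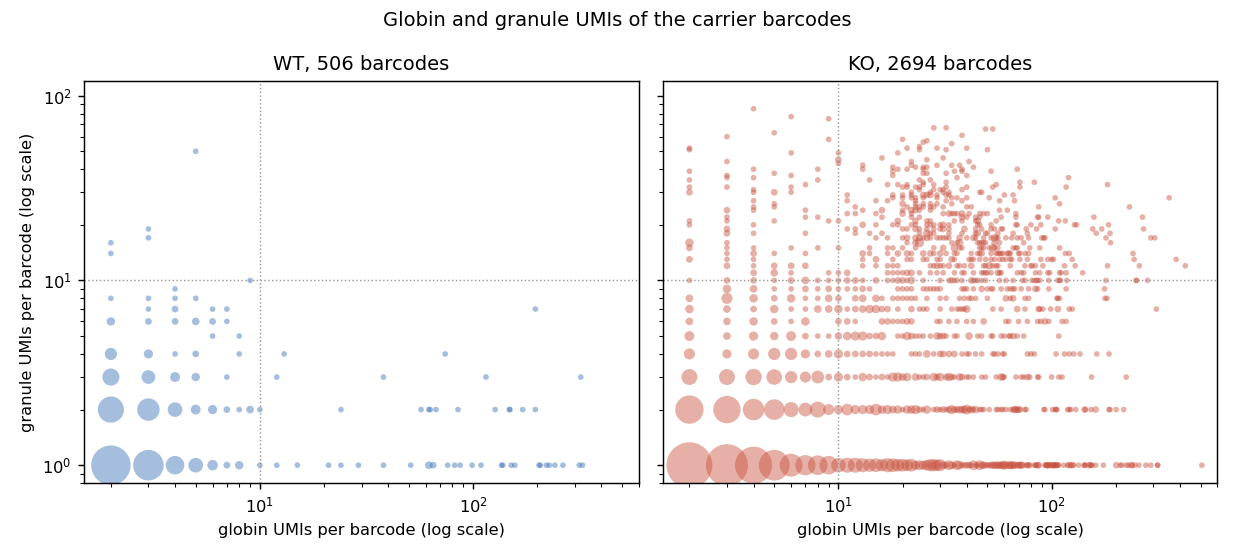
Granule UMIs (y axis, log scale) against globin UMIs (x axis, log scale) of each carrier, WT left and KO right; the area of a point grows with the number of barcodes at that pair of counts, and dotted lines mark 10 UMIs. The upper right corner, past both lines, holds 572 KO barcodes and no WT barcode.

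The limits of the rule cut through continuous ranges. Carriers of 1900 to 2000 UMIs numbered 14 in WT and 146 in KO, and 14 and 109 barcodes of 2000 to 2100 UMIs met the other conditions, with medians of 2 and 8 globin UMIs. Just inside the globin minimum, 207 WT and 280 KO carriers had exactly 2 globin UMIs, and 262 and 300 otherwise like barcodes had 1. Exactly 1 granule UMI was found in 271 WT and 995 KO carriers, and 282 and 1543 barcodes with enough globin had none. Mitochondrial UMIs of 4.5% to 5% were found in 39 WT and 89 KO carriers, and 42 and 80 barcodes lay between 5% and 5.5%. Exactly 1 T cell receptor UMI was found in 53 WT and 89 KO carriers, and 18 and 25 otherwise like barcodes had none. Globin made up 20% to 30% of UMIs in 6 WT and 17 KO carriers and 30% to 40% in 2 and 11 other barcodes, granule genes 4% to 5% in 1 and 30 carriers and 5% to 6% in 0 and 18 others. No carrier had under 320 genes.

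The proportions among the globin genes in carriers were close to those of barcodes made mostly of globin RNA. Hba-a1 (ENSMUSG00000069919; GRCm38 chromosome 11, 32283511 to 32284465, plus strand) had 1690 UMIs in WT carriers and 17828 in KO carriers. Hbb-bs (ENSMUSG00000052305; chromosome 7, 103826534 to 103828096, minus strand) had 3262 and 35109. The beta-type genes gave 60.6% (59.4 to 61.7) of globin UMIs in WT carriers and 59.4% (59.1 to 59.8) in KO carriers, and 61.5% and 60.7% in the 95 WT and 184 KO barcodes with 30% or more globin UMIs, called globin-rich. T barcodes of 2000 UMIs or more had 60.6% and 60.4%. Hbb-bs was 78.1% and 78.4% of the beta-type UMIs in carriers and 79.2% and 78.7% in the globin-rich barcodes. Hba-a1 was 62.1% (60.2 to 63.9) of the alpha-type UMIs in WT carriers and 58.2% in WT globin-rich barcodes, and 58.3% and 57.4% in KO. Hba-a1 and Hba-a2 are near-identical copies, so the split between them depends on how reads were assigned. The embryonic genes Hbb-bh1 and Hbb-y had 0 UMIs in the carriers of both libraries.

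Granule genes also had proportions near those of barcodes rich in granule RNA. S100a8 (ENSMUSG00000056054; chromosome 3, 90668978 to 90670035, plus strand) had 362 UMIs in WT carriers and 5668 in KO carriers, and Ngp (ENSMUSG00000032484; chromosome 9, 110419747 to 110423012, plus strand) had 102 and 2410. S100a8 and S100a9 together gave 802 of 1069 granule UMIs in WT carriers (72.3% to 77.6%) and 68.9% (68.3 to 69.6) in KO carriers, and 72.7% and 71.5% in the 104 WT and 144 KO barcodes with 5% or more granule UMIs, called granule-rich, against 82.5% and 80.8% in T barcodes of 2000 UMIs or more. Ngp was 9.54% (7.85 to 11.5) and 12.6% (12.1 to 13.1) in carriers and 11.1% and 11.9% in the granule-rich barcodes. For each 1000 granule UMIs the carriers had 531 (479 to 589) UMIs of 25 further neutrophil genes in WT and 536 (523 to 549) in KO, near the 469 and 512 of granule-rich barcodes. T barcodes of 2000 UMIs or more had 1785 and 1743. The rule required a granule UMI of carriers but not of those deeper barcodes, so this contrast partly follows the choice. WT barcodes with globin alone and clear WT barcodes, which the rule left without granule UMIs, had 189 and 275 UMIs of these neutrophil genes. The erythroid genes did not match so closely: per 1000 globin UMIs the carriers had 107 (99.1 to 116) UMIs of 20 further erythroid genes in WT and 45.2 (43.6 to 46.8) in KO, and globin-rich barcodes 21.2 and 17.6, while T barcodes of 2000 UMIs or more had 402 and 189. The globin minimum of the rule bears on this contrast in the same way.

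Neutrophil genes outside the rule were higher in KO carriers than in KO clear barcodes, and less so in WT. Clear barcodes were chosen for lacking globin and granule UMIs, so differences in erythroid and neutrophil genes from them follow the choice and are a description. Their summed level was 2985 CPM in KO carriers and 683 in KO clear barcodes, a ratio of 4.37 (3.97 to 4.82), with 1122 and 863 CPM in WT, as against 1.30 (1.12 to 1.51) for WT carriers over WT clear barcodes. In KO, 15 of 19 neutrophil genes with at least 50 UMIs were at least 1.5-fold higher in carriers, where 5.97% of all 6702 genes were, and the median log2 ratio was 2.68 against -0.06 over all genes. In WT, 2 of 7 were, where 4.28% of 2568 genes were, with a median of 0.22 against -0.01. Stfa1, a stefin A protease inhibitor of neutrophils with near copies beside it on chromosome 16, was at 714 CPM in KO carriers and 71.4 in KO clear barcodes, but at 107 in both in WT. Retnlg, a resistin-like protein of neutrophils, was at 83.4 and 7.76 CPM in KO, a ratio of 10.7 (4.55 to 33.3), and Chil3, a chitinase-like secreted protein, at 57.3 and 9.32, a ratio of 6.15 (2.77 to 17.0).

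Single genes of the primary granules, which are laid down early in the granulocyte lineage, were not higher in KO carriers to this degree. Mpo (myeloperoxidase) was at 91.3 CPM in KO carriers and 162 in KO clear barcodes, a ratio of 0.565 (0.451 to 0.713), and was the neutrophil gene past 1.5-fold lower. Prtn3 (proteinase 3) was at 95.6 and 134 CPM, a ratio of 0.716 (0.563 to 0.919), while Elane (neutrophil elastase) was at 45.9 and 35.7 CPM with an interval that includes 1. In WT carriers and clear barcodes Mpo was at 39.5 and 62.8 CPM and Prtn3 at 75.1 and 100. The KO granule-rich barcodes had only 20.9 CPM of Mpo and 24.7 of Prtn3, lower than the KO carriers, whereas the WT ones had 473 and 1607 CPM.

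Erythroid genes outside the rule were higher in the carriers of both libraries. They summed to 1460 CPM in WT carriers and 656 in WT clear barcodes, 2.23 times as much (1.91 to 2.61), and to 990 and 421 CPM in KO, a ratio of 2.35 (2.08 to 2.67). Past 1.5-fold higher were 3 of 4 measured genes in WT and 14 of 15 in KO, with none lower. Alas2, the first enzyme of haem synthesis in red cells, was at 49.4 against 6.28 CPM in WT and 68.6 against 12.4 in KO. Rsad2, an antiviral gene induced by interferon, had 2268 CPM in WT and 2378 in KO globin-rich barcodes and followed the same pattern, with 69.2 CPM in WT carriers and 3.14 in clear barcodes, and 21.8 and 7.76 in KO. In WT the erythroid genes were highest in the 43 carriers with 20 or more globin UMIs, at 10040 CPM, as against 633 in the 391 carriers of 2 to 4 globin UMIs.

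Shallow T barcodes with only one of the RNAs gave a closer comparison. Over the 1543 KO barcodes with globin UMIs alone, 16 of 19 neutrophil genes were past 1.5-fold higher in KO carriers (1.9% of all 7456 genes were higher and 2.66% lower), with a summed ratio of 5.55 (5.21 to 5.92). The erythroid genes had a summed ratio of 1.04 (0.986 to 1.10), proliferation genes 1.03 (1.01 to 1.05) and Treg identity genes 0.981 with an interval that includes 1. The rule parts these sets by their granule UMIs, so the neutrophil excess follows the choice and is a description. In WT, 4 of 7 neutrophil genes were past 1.5-fold higher over the 282 barcodes with globin alone (4.38% of 2374 genes were higher and 3.58% lower). Erythroid genes were lower in WT carriers than in those barcodes, at 1460 against 1933 CPM.

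Barcodes with granule UMIs alone are parted from carriers by their globin UMIs, so the erythroid excess is likewise a description. In KO 13 of 15 were past 1.5-fold higher over 434 such barcodes, where 6.06% of 6631 genes were higher and 8.08% lower, with a summed ratio of 2.16 (1.90 to 2.46). In WT 5 of 5 were past 1.5-fold higher over 442 such barcodes, where 3.63% of 2889 genes were higher and 4.05% lower, with summed levels of 1460 and 566 CPM. Neutrophil genes were also higher in KO carriers than in these granule-only barcodes, with a ratio of 2.38 (2.21 to 2.58), but 1.15 (1.01 to 1.31) in WT. None of 12 T cell genes outside the rule passed 1.5-fold in any of these comparisons. Their summed ratios over globin-only barcodes were 0.969 (0.898 to 1.05) in WT and 0.959 (0.934 to 0.985) in KO. Over granule-only barcodes they were 0.932 (0.874 to 0.994) in WT and 0.893 (0.858 to 0.931) in KO.

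Of 2565 genes with at least 50 UMIs in each library's comparison, 22 had an interval above 1 and 17 below 1 in both libraries. Those with the largest excess in carriers were mainly erythroid or granulocyte genes. They held Slc4a1 (the band 3 anion exchanger of red cells), with ratios of 5.21 (2.38 to 13.5) in WT and 21.2 (3.72 to 843) in KO, the latter from 1 UMI in clear barcodes. Lyz2 (lysozyme) had 2.76 (1.74 to 4.56) and 7.36 (4.83 to 11.8), and Car2 (carbonic anhydrase 2) 3.05 (1.85 to 5.29) and 4.70 (2.51 to 9.92). The haem enzymes Alad and Blvrb, the surface protein Cd24a, the bactericidal Pglyrp1, S100a11 and the RNA-binding Lsm5 followed, between 1.35 and 2.36 in WT and between 1.43 and 3.93 in KO.

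The 10 genes furthest below 1 were led by Ccl5, a chemokine of activated T cells, with ratios of 0.275 (0.174 to 0.425) in WT and 0.543 (0.322 to 0.953) in KO. Pik3ip1, an inhibitor of PI3-kinase that is high in quiescent T cells, had 0.354 (0.187 to 0.650) and 0.543 (0.378 to 0.795). Several others act in T cell signalling: the kinase Map4k1, the adaptor Grap2 and the ubiquitin ligase Cbl. With Vgll4, Gpbp1, Elmo1, Vps37b and 9930111J21Rik2, these 8 genes had ratios between 0.483 and 0.643 in WT and between 0.641 and 0.710 in KO.

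**Figure D3:**
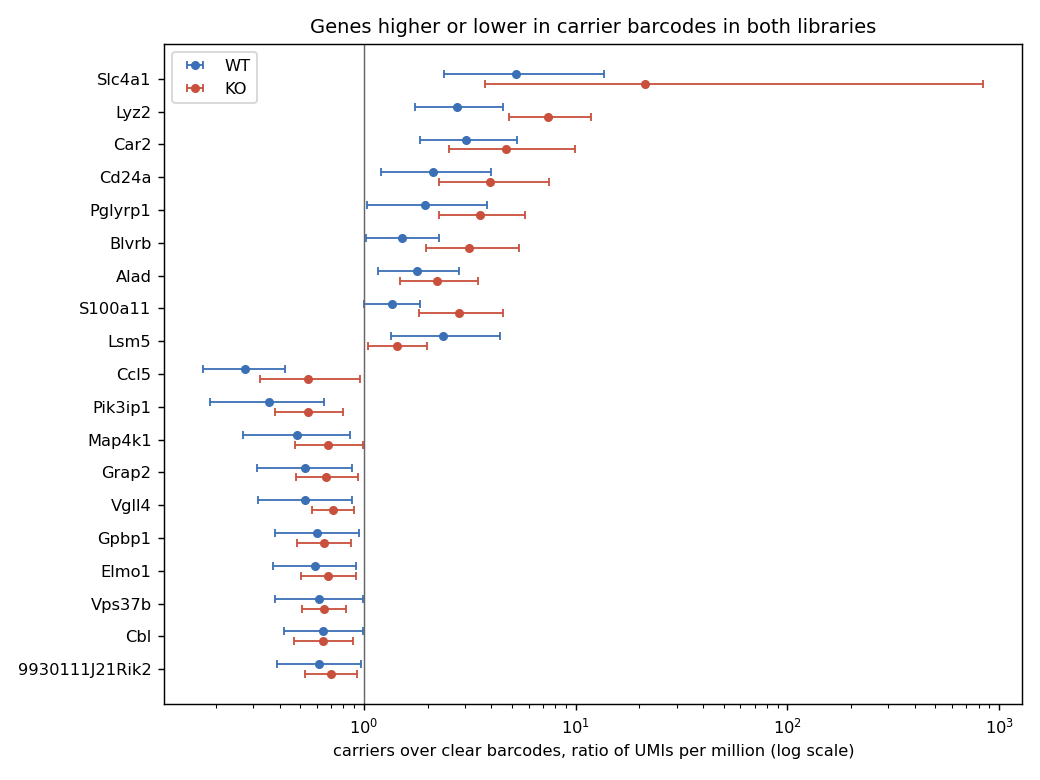
Ratio of CPM in carriers over clear barcodes (x axis, log scale) for genes with intervals on one side of 1 in both libraries, WT blue and KO red, with exact 95% intervals. The genes at the top reach 5.21 in WT and 21.2 in KO (Slc4a1), and the lowest is Ccl5 at 0.275 in WT.

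Apart from the RNA of other lineages, carriers had the RNA of T cells. Of 12 T cell genes outside the rule, none was past 1.5-fold in either direction in either library, where 3.78% of genes were lower in WT and 8.28% in KO. They summed to 3918 CPM in WT carriers, 3720 in WT clear barcodes and 4014 in WT T barcodes of 2000 UMIs or more, and to 4292, 4549 and 4282 CPM in KO. Barcodes rich in granule RNA had 859 in WT and 1988 in KO, and globin-rich ones 2094 and 2273. Trbc1, a constant region of the T cell receptor beta chain, was at 1209 CPM in WT and 1212 in KO carriers, against 1099 and 1138 in clear barcodes. Cd4, the coreceptor used in the sort, was at 119 and 112 CPM in WT and KO carriers and at 154 and 151 in clear barcodes, with a KO ratio of 0.743 (0.593 to 0.938). Median depth was 845 UMIs in WT carriers and 2178 over the WT library, and 1261 and 2137 in KO. The carriers are named by the rule alone and given no cell type.

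Treg identity genes differed little between carriers and clear barcodes. The 20 genes summed to 2677 CPM in WT carriers and 2788 in WT clear barcodes, a ratio of 0.960 (0.882 to 1.05), and to 2894 and 2972 CPM in KO, a ratio of 0.974 (0.927 to 1.02). The median log2 ratio was -0.07 over 12 measured genes in WT and -0.06 over 17 in KO, near the medians of -0.01 and -0.06 over all genes, and 1 gene, in KO, was past 1.5-fold. Il2ra, the high-affinity IL-2 receptor chain of Tregs, was at 130 and 119 CPM in WT and 198 and 200 in KO. Ikzf2, which encodes Helios, was at 630 and 612 CPM in WT and 386 and 460 in KO, a KO ratio of 0.841 (0.740 to 0.957). Ctla4, an inhibitory receptor, was at 79.9 and 110 CPM in KO, a ratio of 0.725 (0.557 to 0.955). Foxp3 itself had 18 UMIs in WT and 113 in KO carriers. After thinning each barcode to 600 UMIs, 1.42% (0.574 to 2.91) of WT and 1.89% (1.41 to 2.48) of KO carriers had a Foxp3 UMI. Globin-rich barcodes (median depths 4793 and 4690 UMIs before thinning) had 3.30% (0.685 to 9.33) in WT and 2.48% (0.681 to 6.24) in KO. Those shares rest on 3 of 91 and 4 of 161 barcodes. Granule-rich barcodes had 0 of 104 in WT (up to 3.48%) and 1.39% (0.169 to 4.93) in KO. Clear barcodes had 1.99% and 1.83%, and T barcodes past the rule's UMI limit 2.91% and 3.02%. The intervals of carriers overlap those of globin-rich and granule-rich barcodes, so the carrier shares cannot be told from background.

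Resting genes were lower in KO carriers than in KO clear barcodes. The 13 genes, which encode homing receptors and quiescence factors, summed to 2351 against 3002 CPM, a ratio of 0.783 (0.745 to 0.824). The median log2 ratio was -0.39, against -0.06 over all genes. Only 1 of 13 was past 1.5-fold lower, where 8.28% of all genes were. An interval below 1 was found for 8 of 13, a count without a share over all genes to set it against. Foxp1, a quiescence factor, was at 265 and 401 CPM, and Ccr7, a lymph node homing receptor, at 122 and 174. In WT the resting genes summed to 2067 and 2110 CPM, a ratio of 0.980 (0.888 to 1.08). Effector genes summed to 1280 and 1127 CPM in KO, a ratio of 1.14 (1.05 to 1.23), and to 2699 and 2728 in WT, a ratio of 0.989 (0.908 to 1.08). KO T barcodes of 2000 UMIs or more had 2378 CPM of resting and 1338 of effector genes, close to the KO carriers.

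**Figure D4:**
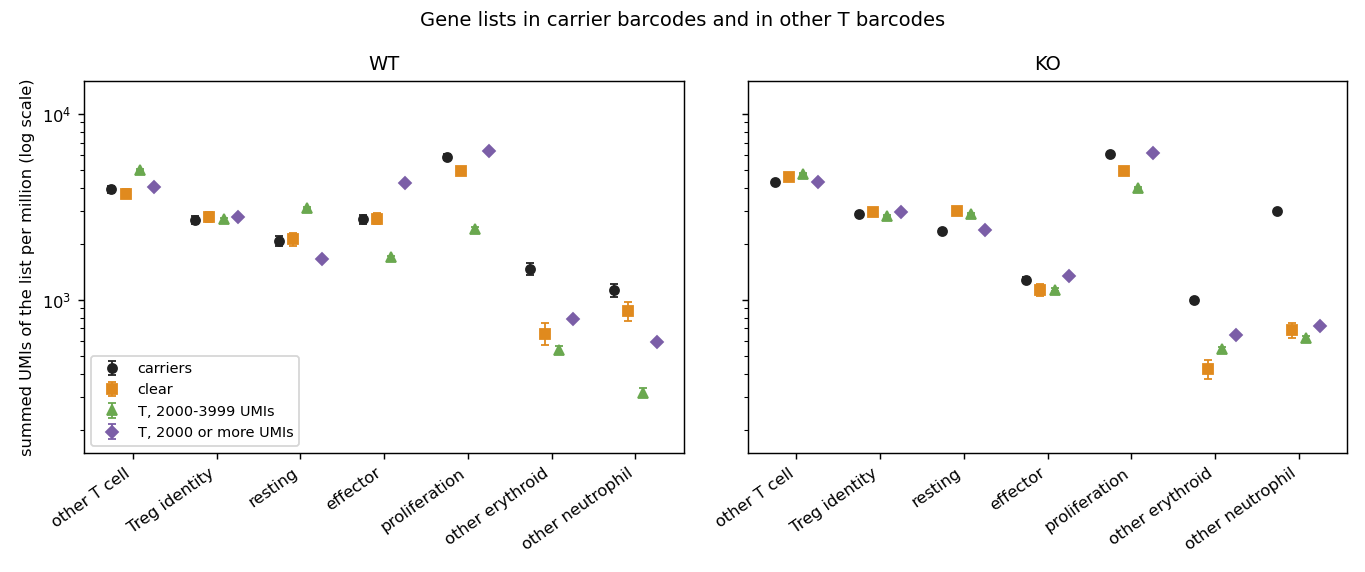
Summed CPM (y axis, log scale) of 7 gene lists (x axis) in carriers, clear barcodes, T barcodes of 2000 to under 4000 UMIs and all T barcodes of 2000 or more, WT left and KO right, with exact Poisson 95% bars. The carriers stand above the other sets for erythroid and neutrophil genes (990 and 2985 CPM in KO), and for Treg identity genes all sets lie between 2677 and 2972 CPM.

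Proliferation genes were somewhat higher in the carriers of both libraries. The 26 genes of DNA replication and mitosis summed to 5841 against 4942 CPM in WT, a ratio of 1.18 (1.11 to 1.26), and to 6080 against 4920 in KO, a ratio of 1.24 (1.19 to 1.28). Past 1.5-fold higher were 4 of 18 measured genes in WT (4.28% of all genes) and 7 of 26 in KO (5.97% of all genes), and 1 in WT was lower. Mki67, a marker of cycling cells, was at 352 CPM in WT carriers and 176 in WT clear barcodes, a ratio of 2.00 (1.47 to 2.75), and at 224 and 183 in KO, a ratio of 1.22 with an interval from 1.01. Cenpf, a kinetochore protein, was at 163 and 106 CPM in KO. Globin-rich barcodes had 12576 CPM of these genes in WT and 13096 in KO, about the level of the 43 globin-richest WT carriers (11995), and the part of erythroid RNA in the excess was not tested. Without those 43 carriers the WT median log2 ratio was 0.10 in place of 0.18. Without the 1110 KO carriers with 20 or more globin UMIs, the KO median rose to 0.39 from 0.34. Both steps were added after the data were seen.

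Among nuclear and ribosomal RNA-like transcripts, Malat1 was lower in KO carriers than in KO clear barcodes. Malat1, Neat1, Kcnq1ot1, Gm42418 and AY036118 summed to 72543 CPM in WT carriers and 70990 in WT clear barcodes, a ratio of 1.02 (1.01 to 1.04), and to 31387 and 38755 in KO, a ratio of 0.810 (0.799 to 0.821). Malat1, a nuclear RNA, was at 20792 CPM in KO carriers with a ratio of 0.735 (0.723 to 0.747), and its WT ratio was 1.01 (0.984 to 1.04). It was the 1 gene of 5 with an interval below 1 in KO, where none was past 1.5-fold and 2 had ratios above 1. In WT 2 of 5 had an interval above 1 and 1 below, and Neat1, another nuclear RNA, had a ratio of 1.75 (1.27 to 2.44). Gm42418 and AY036118 overlap at a ribosomal RNA-like locus, so their split is uncertain. Mitochondrial transcripts had ratios of 1.01 (0.980 to 1.04) in WT and 0.931 (0.916 to 0.946) in KO.

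Not every other lineage was higher in carriers than in clear barcodes. Macrophage genes had carrier to clear ratios of 0.667 (0.514 to 0.866) in WT and 0.408 (0.267 to 0.637) in KO, at 245 and 20.9 CPM in carriers. B cell genes had 0.998 (0.783 to 1.28) in WT and 0.518 (0.445 to 0.605) in KO, and antigen-presenting genes 0.192 (0.130 to 0.276) in WT and 0.997 (0.709 to 1.43) in KO. The low ratios did not hold over every set. Over barcodes with globin UMIs alone, KO B cell genes had 0.968 (0.851 to 1.10), WT antigen-presenting genes 1.43 (0.758 to 2.84) and KO macrophage genes 1.58 (0.997 to 2.58). Over those with granule UMIs alone the ratios were 1.26 (0.998 to 1.60), 0.633 (0.406 to 0.980) and 0.660 (0.390 to 1.18). WT macrophage genes had 0.605 (0.462 to 0.792) and 0.997 (0.761 to 1.31). Platelet genes had 3 UMIs in WT and 6 in KO carriers, and mast cell and basophil genes 9 and 74. CD8 and cytotoxic genes had intervals that include 1 in both libraries. Of the heat-shock and immediate early genes, 1 of 8 was past 1.5-fold lower in KO, where 8.28% of all genes were. An interval below 1 was found for 4 of 8, with no share over all genes beside it. Their summed ratio was 0.825 (0.774 to 0.879) in KO and 0.984 (0.895 to 1.08) in WT.

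The T cell content of KO carriers changed little over their range of globin. Treg identity genes were slightly lower and proliferation genes slightly higher in the carriers with most globin. The 737 KO carriers with 2 to 4 globin UMIs had 4370 CPM of T cell genes outside the rule, 2968 of Treg identity genes and 5728 of proliferation genes, and the 1110 with 20 or more had 4207, 2803 and 6127. Erythroid genes went from 514 to 1500 CPM and neutrophil genes from 1727 to 4310 between the same sets. The 572 with at least 10 UMIs of both RNAs, whose medians were 35 globin and 17 granule UMIs, had 4221, 2745 and 6024 CPM of the T cell, Treg identity and proliferation genes. They were slightly shallower, with a median of 1187 UMIs against 1293 in the other KO carriers, and held 61.0% of all granule UMIs of KO carriers.

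In WT the carriers differed along this range. The 391 with 2 to 4 globin UMIs had 4079 CPM of T cell genes, 2822 of Treg identity genes and 5052 of proliferation genes, whereas the 43 with 20 or more had 2245, 1665 and 11995. Those 43 had a median of 99 globin UMIs and 983 UMIs in all, and 13226 CPM of mitochondrial transcripts against 25005 in the 391. Their T cell and Treg identity levels were near the 2094 and 1454 CPM of WT globin-rich barcodes. The 6 WT carriers with 10 or more granule UMIs had 7228 CPM of other neutrophil genes and 2497 of T cell genes.

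At equal depth, carriers varied less from one another in proliferation genes than deeper T barcodes did. Each barcode was thinned to 600 UMIs outside the rule genes, which left out 14 WT and 0 KO carriers, and the variance of a list's UMIs over barcodes was divided by its mean (the Fano factor, which is 1 for pure counting noise). For proliferation genes it was 1.34 in KO carriers at a mean of 3.69 UMIs, and 4.28 in KO T barcodes of 2000 UMIs or more at 2.97 UMIs. No proliferation UMI was left in 4.75% of KO carriers and 21.4% of the deeper barcodes. The WT factors were 1.99 and 4.34, with 4.07% and 25.6% at no UMI. In T barcodes of 2000 to under 4000 UMIs, the nearest in depth, the factors were 2.56 in WT and 2.82 in KO.

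Treg and effector genes followed the same order in KO. Treg identity genes had a factor of 1.08 in KO carriers and 1.34 in deeper KO barcodes, resting genes 0.992 and 1.31, and effector genes 1.08 and 1.67. In WT the effector genes had 1.21 in carriers and 3.78 in deeper barcodes, whereas resting genes had 1.39 and 1.40. Clear barcodes had low factors as well, 1.17 in WT and 1.93 in KO for proliferation and 1.59 and 2.19 for effector genes. A spread below that of deeper T barcodes was thus also found without globin and granule RNA, except for KO effector genes, and for proliferation WT carriers lay above WT clear barcodes. In KO carriers the neutrophil genes had a factor of 4.08 and the erythroid genes 1.75, and in deeper KO barcodes 6.91 and 3.69.

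**Figure D5:**
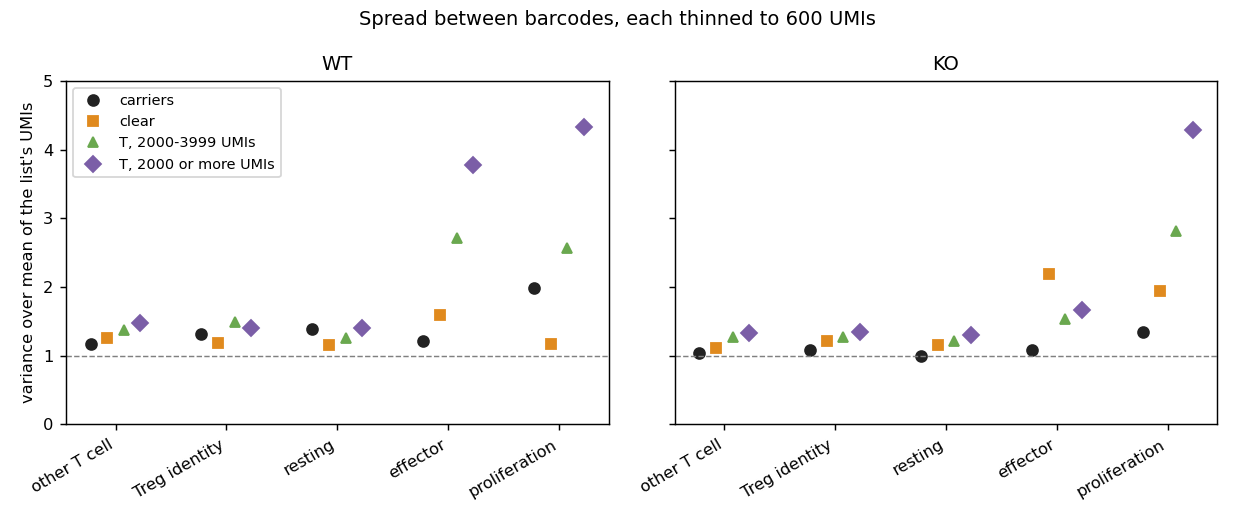
Variance over mean of a list's UMIs between barcodes (y axis) for 5 lists (x axis), each barcode thinned to 600 UMIs, in carriers, clear barcodes, T barcodes of 2000 to under 4000 UMIs and all those of 2000 or more, WT left and KO right; the dashed line marks 1, the value of counting noise. For proliferation genes the carriers are at 1.99 in WT and 1.34 in KO, and T barcodes of 2000 UMIs or more at 4.34 and 4.28.

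At 600 UMIs, Mki67 or Top2a, both cell cycle genes, was detected in 26.9% (25.3 to 28.7) of KO carriers, 23.5% of KO clear barcodes and 19.2% (18.4 to 20.1) of deeper KO T barcodes. The WT shares were 30.3% (26.3 to 34.6), 22.2% and 17.0%, while globin-rich barcodes had 37.4% in WT and 36.0% in KO and granule-rich barcodes 20.2% and 18.8%, so no set without cycle genes was at hand as a background. A Stfa1 UMI was found in 27.8% (26.1 to 29.5) of KO carriers, 4.87% of KO clear barcodes and 7.45% of KO globin-rich barcodes, and in 6.91%, 6.55% and 5.49% in WT, where the carriers were thus at background. Before thinning the Stfa1 share was 40.8% in KO and 9.76% in WT carriers.

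Carriers of both genotypes were then compared with each other, beside clear barcodes. Igfbp4 (ENSMUSG00000017493; chromosome 11, 99041244 to 99054392, plus strand), which encodes a secreted binding protein of insulin-like growth factors, was at 266 CPM in KO carriers (914 UMIs) and 39.5 CPM in WT carriers (20 UMIs), a ratio of 6.72 (4.33 to 11.1). In clear barcodes the ratio was 3.61 (2.35 to 5.78), from 272 and 75.4 CPM, and in T barcodes of 2000 UMIs or more it was 4.78. The log2 ratio was larger in carriers than in clear barcodes by 0.89 (0.01 to 1.77), and WT carriers were below WT clear barcodes, with a ratio of 0.524 (0.275 to 0.991). At 600 UMIs 15.0% (13.7 to 16.4) of KO carriers had an Igfbp4 UMI, against 6.21% of KO globin-rich and 6.25% of KO granule-rich barcodes. In WT carriers 2.03% did, against 1.10% and 4.81%, which cannot be told from background.

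KO carriers had less of the effector genes and more of the interferon-induced genes than WT carriers. Among 6675 genes, 8.66% were at least 1.5-fold higher and 22.3% lower in KO carriers, with a median log2 ratio of -0.15. Of 8 measured effector genes 7 were past 1.5-fold lower, with a median of -2.04, and in clear barcodes 4 of 5 were, where 11.7% of genes were lower. S100a6, a calcium-binding protein, was at 117 CPM in KO and 680 in WT carriers, a ratio of 0.172 (0.149 to 0.200), S100a4 had 0.151 (0.111 to 0.205) and the integrin chain Itgb1 0.173 (0.132 to 0.226). Of 12 interferon-induced genes 8 were past 1.5-fold higher, with a median of 1.11, and 1 was lower, Rsad2. In clear barcodes 5 of 5 were, where 8.35% of genes were higher. Isg15, a ubiquitin-like modifier, was at 180 CPM in KO and 65.2 in WT carriers, and Igtp, an interferon-induced GTPase, at 188 and 75.1.

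Treg identity genes had near summed levels in KO and WT carriers, but single genes went both ways. Their summed ratio of KO to WT carriers was 1.08 (1.02 to 1.14). Of 16 measured genes 5 were past 1.5-fold higher and 2 lower, where 8.66% of all genes were higher and 22.3% lower. Intervals lay above 1 for 7 genes and below 1 for 3, with no share over all genes to set these counts against. The median log2 ratio was 0.17, against -0.15 over all genes. Tnfrsf18, the costimulatory receptor GITR, was at 352 and 223 CPM, and Ikzf2 at 386 and 630. Of 9 measured p53 target genes 5 were past 1.5-fold higher and none lower, with a median of 0.67, where 8.66% of all genes were higher and 22.3% lower. The summed p53 target ratio was 1.59 (1.37 to 1.86) in carriers and 1.53 (1.24 to 1.90) in clear barcodes. Those past 1.5-fold higher included Bax, a mediator of apoptosis, at 312 against 154 CPM, and Cdkn1a, a cell cycle inhibitor, at 28.2 against 1.98 CPM from 1 WT UMI, a ratio of 14.3 (2.50 to 569). Of 5 metabolic genes that the study chose on these samples, 4 were past 1.5-fold lower, where 22.3% of all genes were, and in clear barcodes 2 of 5, where 11.7% were. Hadha, a fatty acid oxidation enzyme, was at 52.3 and 111 CPM, and Ndufa4, a respiratory chain subunit, at 216 and 348. Of the genes taken as raised in KO, 3 of 3 measured were past 1.5-fold higher, a list that was itself chosen with results of these samples known. Proliferation genes had a summed ratio of 1.04 (1.00 to 1.08).

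Neutrophil genes were also higher in KO than in WT carriers. Of 19 measured neutrophil genes 14 were past 1.5-fold higher and 1 lower in KO carriers, where 8.66% of all genes were higher and 22.3% lower. The summed ratio was 2.66 (2.44 to 2.90). KO carriers also held more granule UMIs, a mean of 7.12 per barcode against 2.11 in WT carriers. Per 1000 granule UMIs, the neutrophil genes had 536 UMIs in KO and 531 in WT carriers. The rule required at least 1 granule UMI of each carrier. In clear barcodes, which the rule chose for having no granule UMI, the summed ratio was 0.791 (0.679 to 0.924). In T barcodes of 2000 to under 4000 UMIs, not chosen by granule UMIs, these genes were at 622 CPM in KO and 315 in WT. Stfa1 had a ratio of 6.69 (5.11 to 8.93) in carriers, 0.669 (0.420 to 1.08) in clear barcodes and 2.05 in deeper T barcodes. Chil3 had 5.80 (2.44 to 18.1) in carriers. Erythroid genes outside the rule had a summed ratio of 0.678 (0.626 to 0.735) in carriers and 0.641 (0.533 to 0.772) in clear barcodes. Genotype, library and depth cannot be told apart in these ratios.

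The other genes named for the largest KO to WT ratios in carriers rested on few WT UMIs. Phlda3, Srd5a3, Snrnp35, Naf1 and Nsun5 each had 1 UMI in WT carriers and 51 to 89 in KO carriers, with ratios of 7.50 to 13.1 and intervals from as low as 1.29. Chst12, a sulfotransferase of the Golgi, had 0 and 55 UMIs. On the lower side, AY036118 was at 118 CPM in KO and 1551 in WT carriers, a ratio of 0.0763 (0.0675 to 0.0861), and Lars2, a mitochondrial leucyl-tRNA synthetase, at 244 and 1235, a ratio of 0.198 (0.178 to 0.220). Apoe, an apolipoprotein made by macrophages, had a ratio of 0.103 (0.0612 to 0.171). Tsix, Hist1h2be, Smim1 and Dctn1 had ratios of 0.163 to 0.200. Tsix runs antisense to another gene, and the strand setting of the counting is not given in the sources used here. These genes were named by size of ratio, and no replicate bears on them.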

How the data were processed

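The authors deposited raw UMI counts per gene and barcode, made from the reads by Cell Ranger 5.0.1 with mm10 as the genome, per the labels and the study's methods. Both matrices list 32285 features. The counts were used as deposited, with no integration. The rule and the 25 gene lists were chosen with earlier results of these data known. Ahsp was not among the features. UMIs were summed over barcodes and scaled to 1000000 UMIs outside the 15 genes of the rule (CPM). List counts used genes with at least 50 UMIs over both sets compared, and log2 ratios had 0.5 added to each sum. Intervals (95%, counting error only) are Poisson for UMI sums, conditional binomial for ratios, Clopper-Pearson for shares and Newcombe for the difference of shares. UMI sums over barcodes are not independent cells, so intervals do not cover variation between animals. Thinning was without replacement. Genes named for size had at least 50 UMIs and an interval that left out 1 (in both libraries for carriers over clear barcodes), and were the 10 highest and 10 lowest by log2 ratio. Genes of the lists and of the rule, Zfp335 and Igfbp4 were also named. Some genes that met these rules are not reported here. Doublets were kept, because the rule does not remove them. Scrublet (scanpy 1.11.5) was run per library, and its highest 5% in WT and 8% in KO held 42 WT and 230 KO carriers. The ratio and list steps were tested on simulated data. Python 3.11.15, numpy 2.4.6, scipy 1.17.1, pandas 2.3.3 and matplotlib 3.10.9 were used.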

Additional observations from a re-analysis of the deposited data

Results flagged for a closer look

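The summed level of the nuclear and ribosomal RNA-like transcripts lay on opposite sides of 1 in the libraries when carriers were set over clear barcodes, with a ratio of 1.02 (1.01 to 1.04) in WT and 0.810 (0.799 to 0.821) in KO. In KO the sum was carried by Malat1, the 1 gene of 5 with an interval below 1, while 2 of 5 had ratios above 1. The difference between the genotypes was not tested, since each has 1 library.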

How the results depend on the processing

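No paired analysis was possible because each genotype has 1 library. Of the alternative values, 48 stayed within the 95% counting interval of the reported value and 17 moved outside it. The WT Treg identity median, -0.07 with an interval that includes 0, changed sign to 0.04 with 100 UMIs per gene. The share of carriers was 31.4% in WT and 51.2% in KO, with a difference of 19.8 points. With at least 3 globin UMIs it was 18.6% and 45.9% (27.3 points), with at least 2 granule UMIs 14.6% and 32.3%, and after thinning to 500 UMIs 13.0% and 28.2% (15.2 points). With a mitochondrial limit of 10% the KO share was 47.8% and the difference 16.7 points. With barcodes under 820 UMIs left out, a setting chosen after seeing the data, the WT share was 36.5% and the difference 14.7 points. The median log2 ratio of proliferation genes in WT, 0.18, was 0.41 when weighted to the carriers' depths and 0.30 with 100 UMIs per gene. The KO value, 0.34, was 0.41 against barcodes without globin UMIs and 0.40 with the highest Scrublet scores removed, a step that took the KO Treg identity median from -0.06 to -0.24. The cause of these shifts was not tested. Igfbp4 ratios ranged from 4.85 to 7.66, and the reported ratio rests on 20 WT UMIs in carriers and 1 library per genotype.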
